A study of Mus musculus with 13 samples.

Results

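The 9 homeostatic microglia genes P2ry12, P2ry13, Gpr34, Siglech, Fcrls, Sall1, Cx3cr1, Csf1r and Tmem119 were examined in whole midbrain. They were taken by name as genes of resting microglia, with earlier results of these data known. All 9 were found among the 49315 genes of the count files. RNA-Seq had been performed on 13 male mice that carried Ripk3fl/fl, a floxed allele of the necroptosis kinase Ripk3, with or without a tamoxifen-inducible Cre under the astrocyte promoter Aldh1l1. Cre- littermates keep astrocytic Ripk3, and Cre+ mice are meant to lose it in astrocytes only. All mice, Cre- included, had received tamoxifen (60 mg/kg). They were then given 5 daily injections of saline or of MPTP (20 mg/kg), a toxin that kills dopaminergic neurons, and perfused midbrains were taken 3 days after the last one. The groups were Cre- Saline (n = 3), Cre- MPTP (n = 3), Cre+ Saline (n = 3) and Cre+ MPTP (n = 4), each library from a separate mouse. All were young adults by the study's methods.

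Microglia are the resident macrophages of the brain. In the undisturbed adult brain, they depend on signals such as CSF1, IL-34 and TGF-β, and they carry a set of receptors and regulators by which they survey their surroundings. Many of these genes are known to fall when microglia respond to injury or inflammation, and some are also low in macrophages that enter from the blood. P2ry12 encodes the ADP receptor by which microglial processes move toward injured cells, and P2ry13 encodes a related ADP receptor. Gpr34 encodes a receptor for lysophosphatidylserine. Siglech and Fcrls encode surface receptors of the Siglec and Fc receptor-like families. Sall1 encodes a zinc finger transcription factor that maintains microglial identity. Cx3cr1 encodes the fractalkine receptor, Csf1r encodes the receptor for CSF1 and IL-34, and Tmem119 encodes a membrane protein used to label microglia.

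Totals assigned to genes ranged from 11489150 to 29397278 counts per library, and the 9 genes together received 1094 counts or more in each. Cre- MPTP replicate 1 had both the lowest total and the fewest genes with a count, at 21101 against 25432 to 27186 elsewhere. That library also stood apart in other cell markers, with 1791 summed CPM (counts relative to the TMM-scaled library total) of 4 neuron markers against 2722 to 3415 in all other libraries. Calls of the 9 genes that changed without it are therefore also given without it, as are some fold changes. Other printed fold changes include this library. Ripk3 itself received only 4 to 40 counts per library, with 4 to 11 in Cre- Saline, 6 to 40 in Cre- MPTP, 6 to 10 in Cre+ Saline and 4 to 19 in Cre+ MPTP. These ranges overlapped, so the level of Ripk3 in whole tissue did not check the genotype labels. The 4 markers of dopaminergic neurons, Th, Slc6a3, Slc18a2 and Ddc, were present in every library, at 171 to 343 summed CPM.

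In saline-treated mice, the 9 genes differed in level. Compared per length as RPKM, Csf1r was highest in Cre- Saline at 13.1 ± 1.76 (SD, n = 3), and Siglech was lowest at 2.88 ± 0.632. Between them came P2ry12 (8.71 ± 1.46), Tmem119 (8.04 ± 0.810), Cx3cr1 (6.69 ± 0.110), Fcrls (6.31 ± 1.33), Sall1 (4.90 ± 0.463), Gpr34 (3.90 ± 1.27) and P2ry13 (3.63 ± 0.366). The steps from Csf1r to P2ry12 and from Tmem119 to Cx3cr1 were larger than the SDs of both neighbours together, and the other neighbours were within theirs. After MPTP, the order in Cre- mice was different. Csf1r (12.01 ± 1.42 RPKM) and Tmem119 (9.32 ± 4.96) came first, followed by Cx3cr1 (5.79 ± 3.36) and Sall1 (3.21 ± 0.877). P2ry12 (1.24 ± 0.227), P2ry13 (1.04 ± 0.533), Fcrls (1.03 ± 0.552), Siglech (0.408 ± 0.314) and Gpr34 (0.349 ± 0.303) made up the lower end. The step from Sall1 to P2ry12 was larger than the SDs of both together, and all other neighbours were within theirs.

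**Figure D1:**
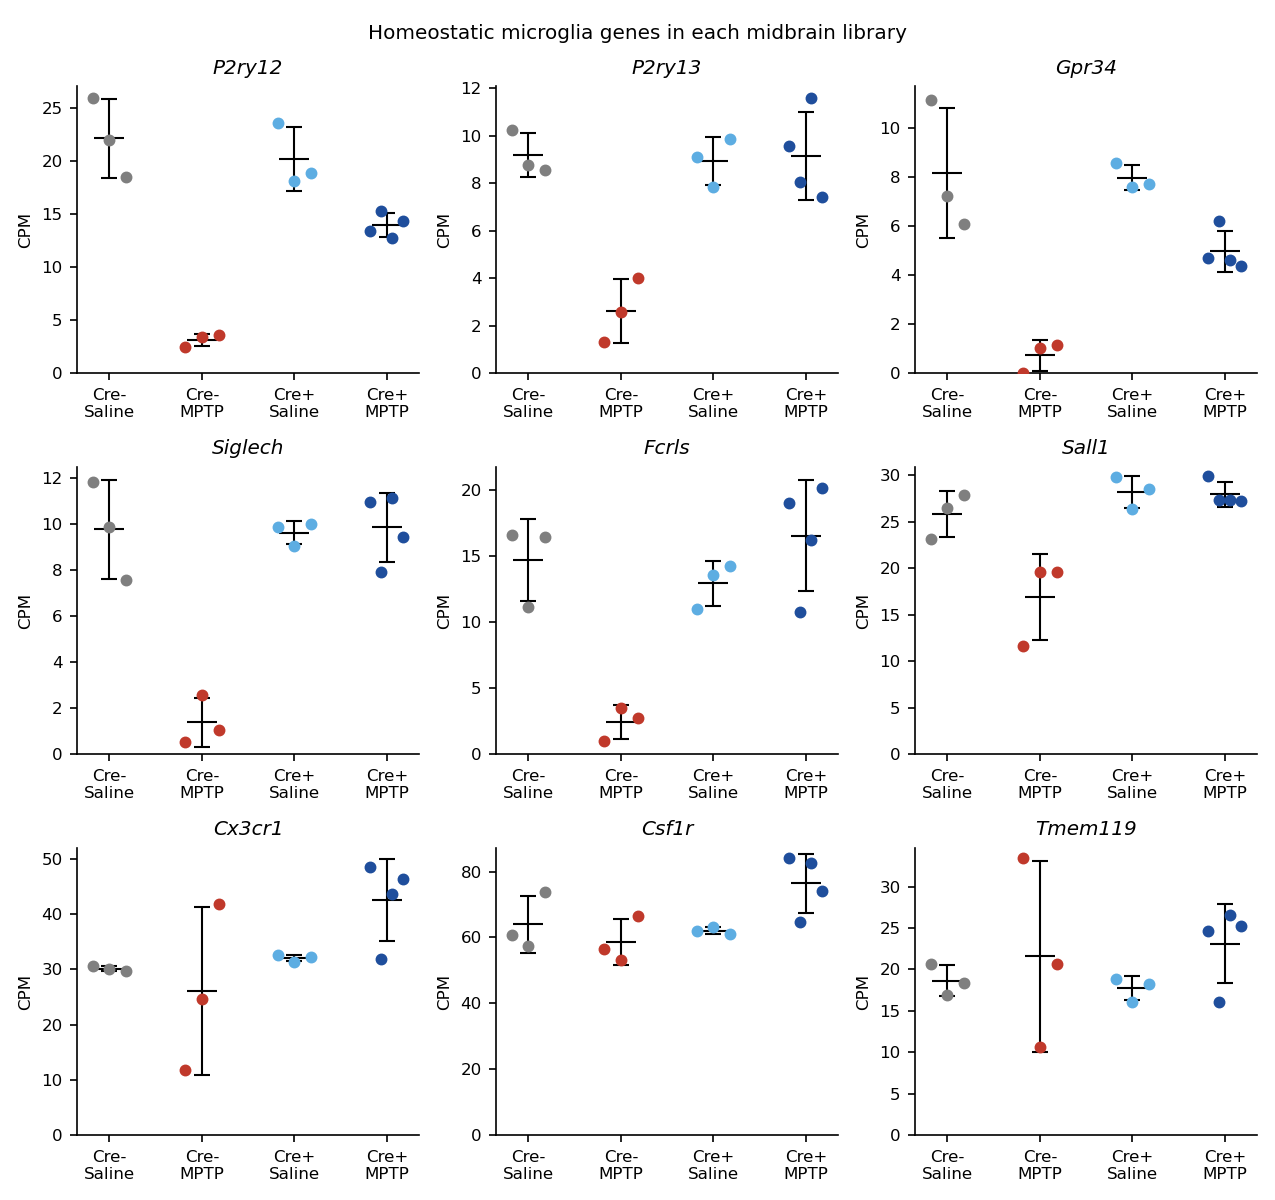
CPM of each of the 9 genes (vertical axes) in the 13 midbrain libraries, by group. Points are single mice and bars show the mean ± SD; the 3 Cre- MPTP mice lie below every other mouse for P2ry12, P2ry13, Gpr34, Siglech, Fcrls and Sall1.

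To ask whether MPTP changed these genes in mice with intact astrocytic Ripk3, Cre- MPTP was compared with Cre- Saline. Of the 9 genes, 5 fell, namely P2ry12, P2ry13, Gpr34, Siglech and Fcrls. Their mean CPM dropped to between 8.93% (Gpr34) and 28.6% (P2ry13) of the Cre- Saline mean. Cx3cr1, Csf1r and Tmem119 did not pass the test, and Sall1 was lower in every MPTP mouse without passing it. Of all 19360 genes tested with edgeR, 0.956% were called lower in this comparison, 2.23% higher and 3.18% in either direction at an adjusted p under 0.05. The median log2 fold change was -1.75 over the 9 genes and 0.03 over all genes tested. In bulk tissue, fewer microglia and less RNA of a gene per microglial cell cannot be told apart.

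The ADP receptors were examined first. P2ry12 measured 26.0, 22.1 and 18.5 CPM in the 3 Cre- Saline mice and 2.49, 3.41 and 3.57 CPM in the 3 Cre- MPTP mice. The lowest saline mouse was thus far above the highest MPTP mouse. The fitted log2 fold change was -2.79 (edgeR adjusted p = 0.000104, SE 0.199), which ranked 1st by p among the 19360 genes. P2ry13 measured 10.2, 8.75 and 8.54 CPM under saline and 1.30, 2.57 and 3.99 CPM under MPTP. These groups did not overlap either, and the log2 fold change of -1.75 (edgeR adjusted p = 0.00734, SE 0.313) was smaller than that of P2ry12.

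The lipid receptor gene Gpr34 fell to very low counts. Its level was 11.2, 7.22 and 6.10 CPM in Cre- Saline and 0, 1.03 and 1.16 CPM in Cre- MPTP. The last 3 values rest on 0, 26 and 35 counts, and a count of 0 allows up to 3 counts in that library. The fitted change was -3.29 on the log2 scale (edgeR adjusted p = 0.00422, SE 0.531) and stood at -2.89 when the library that had no count was left out.

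The surface receptors Siglech and Fcrls also fell. Siglech measured 11.8, 9.88 and 7.56 CPM under saline and 0.542, 2.57 and 1.02 CPM under MPTP, a log2 fold change of -2.74 (edgeR adjusted p = 0.00253, SE 0.396). Its fold change depended most on Cre- MPTP replicate 2, without which it was -3.52. Fcrls measured 16.6, 11.1 and 16.4 CPM under saline and 0.975, 3.49 and 2.74 CPM under MPTP, a log2 fold change of -2.55 (edgeR adjusted p = 0.00253, SE 0.366). For both genes every MPTP mouse was below every saline mouse, and Cre- MPTP replicate 1 was the lowest of the 3.

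Sall1 showed a smaller difference. Its level was 23.1, 26.4 and 27.9 CPM in Cre- Saline and 11.6, 19.6 and 19.6 CPM in Cre- MPTP. The groups did not overlap, as was the case for 8.02% of all genes tested in this direction and 7.11% in the other, and for 6 of the 9 members. The log2 fold change of -0.60 (SE 0.183) gave an edgeR adjusted p of 0.126. Without Cre- MPTP replicate 1, it was -0.39 with an edgeR adjusted p of 0.0245, so the call for Sall1 turned on that library. Sall1 was also called by DESeq2 over all libraries (-0.56, DESeq2 adjusted p = 0.0218) and by limma voom (-0.43, limma adjusted p = 0.00365).

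The remaining members were spread widely under MPTP or stayed near the saline level. Cx3cr1 measured 30.6, 30.1 and 29.6 CPM in Cre- Saline and 11.7, 24.6 and 41.9 CPM in Cre- MPTP, so that MPTP mice lay on both sides of the saline mice. Tmem119 measured 20.6, 16.9 and 18.4 CPM under saline and 33.5, 10.6 and 20.6 CPM under MPTP. The library with the highest Tmem119, Cre- MPTP replicate 1, had the lowest Cx3cr1. Csf1r measured 60.6, 57.5 and 73.8 CPM under saline and 56.5, 53.1 and 66.4 CPM under MPTP, with overlapping groups. The log2 fold changes were -0.20 (SE 0.325) for Cx3cr1, 0.20 (SE 0.322) for Tmem119 and -0.12 (SE 0.146) for Csf1r, with edgeR adjusted p of 0.795, 0.79 and 0.7. The signs for Cx3cr1 and Tmem119 turned when Cre- MPTP replicate 1 was left out, to 0.15 and -0.25.

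Leaving out each of the 6 libraries in turn, P2ry12, P2ry13, Gpr34, Siglech and Fcrls kept their calls in 6 of 6 fits. Without Cre- MPTP replicate 1, P2ry13 was at -1.47, Siglech at -2.45 and Fcrls at -2.24. When edgeR was run on these 6 libraries alone, without the spread of the other groups, only P2ry12 was called and the other 4 had adjusted p of 0.0775 to 0.181 (edgeR). DESeq2 on the same 6 libraries called 5 of the 9 genes.

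**Figure D2:**
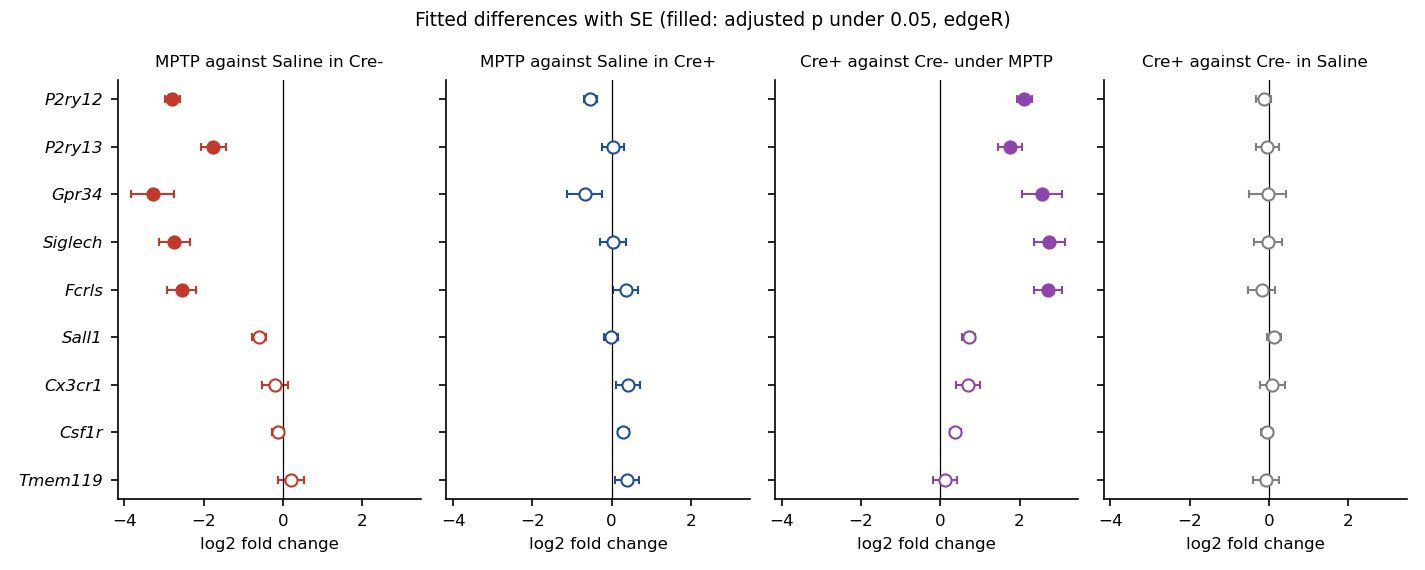
Log2 fold changes (horizontal axes) of the 9 genes in 4 comparisons, fitted with edgeR over all 13 libraries. Bars show the SE and filled points have an adjusted p under 0.05; 5 genes are filled in each of the comparisons that contain Cre- MPTP and 0 in the others.

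The 9 genes took different shares of their summed level between groups. P2ry12 made up 8.95% to 12.3% of their summed CPM in Cre- Saline and 2.10% to 2.82% in Cre- MPTP. The share of Csf1r was 28.8% to 35.7% in Cre- Saline and 41.3% to 47.6% in Cre- MPTP, while its own level was not called different. In Cre+ MPTP, P2ry12 made up 5.38% to 8.15% and Csf1r 32.4% to 35.0% of the sum.

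Some of the members overlap other genes by the coordinates in the count files (GRCm38). P2ry12 (chr3:59216272-59262871, minus strand) and P2ry13 (chr3:59207892-59210882, minus strand) lie side by side within Med12l, a Mediator subunit gene on the opposite strand. P2ry12 shares 9 exonic bases with Med12l, and P2ry13 shares 0. Gpr34 (chrX:13632089-13640858, plus strand) lies within Cask on the opposite strand and shares 0 exonic bases with it. The libraries were stranded, but the strand setting of the counting is not given in the sources used here. Med12l (log2 fold change 0.23, edgeR adjusted p = 0.692) and Cask (-0.19, edgeR adjusted p = 0.732) were not called in Cre- mice after MPTP. Csf1r shares 871 of its 4885 exonic bases with Hmgxb3 on the opposite strand, and reads there cannot be told apart without strand. Cx3cr1 shares 78 exonic bases with the antisense gene Gm33858.

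Promoters were looked up for the 5 genes that fell together, to show the sequence beside their start sites. The RefSeq table (GRCm38.p6) held promoters for 6 of the 9 members, namely P2ry12, P2ry13, Siglech, Fcrls, Cx3cr1 and Sall1. The motif AGGAAG, a core that ETS family factors such as PU.1 bind, was searched on both strands in the 250 bases before each start. Starts are those of the RefSeq table and can differ from the gene ends in the count files. By the exons in those files, all 250 bases are exonic for P2ry12 and Cx3cr1, 136 for Fcrls, 6 for Siglech and 0 for P2ry13 and Sall1. The Cx3cr1 window lies within the span of that gene there. AGGAAG occurred in P2ry12, P2ry13, Fcrls and 1 of the 3 Sall1 promoters, and 29.5% of 32851 promoters hold it. A loose form of the MEF2 motif, CTA and TAG with any 4 bases between them, occurred only in Cx3cr1 (3.20% of promoters). The AP-1 motif TGANTCA occurred in 0 members (6.75% of promoters). Shown are stretches for 4 of the genes that fell, 5′ to 3′ on the gene's own strand, with AGGAAG in capitals. They are 30 bases around the P2ry12 motif (chr3:59263020-59263049, minus strand) and the 250 bases before P2ry13 (chr3:59210883-59211132, minus strand). For Siglech they are 244 bases before the RefSeq start (chr7:55767934-55768177, plus strand), and for Fcrls 78 bases before it (chr3:87263600-87263677, minus strand). By the count files, the Fcrls stretch lies inside that gene (chr3:87250758-87263738) but outside exons.
P2ry12: aagctaacaagaAGGAAGttccccagtgac
P2ry13: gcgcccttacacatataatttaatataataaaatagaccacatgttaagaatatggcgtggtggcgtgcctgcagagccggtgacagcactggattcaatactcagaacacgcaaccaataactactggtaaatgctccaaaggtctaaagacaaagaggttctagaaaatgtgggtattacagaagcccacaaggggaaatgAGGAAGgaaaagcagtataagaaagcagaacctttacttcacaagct
Siglech: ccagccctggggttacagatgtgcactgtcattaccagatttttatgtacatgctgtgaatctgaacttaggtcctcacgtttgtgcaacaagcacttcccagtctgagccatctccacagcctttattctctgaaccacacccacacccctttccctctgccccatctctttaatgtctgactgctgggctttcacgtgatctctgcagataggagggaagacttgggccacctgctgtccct
Fcrls: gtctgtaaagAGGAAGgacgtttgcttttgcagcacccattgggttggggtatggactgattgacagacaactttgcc

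The AGGAAG of P2ry12 lay 52 to 47 bases before its RefSeq start and that of P2ry13 47 to 42 bases before its own. The P2ry12 window (chr3:59262986-59263235) lies beyond the end of that gene in the count files and is wholly exonic there. Fcrls had 4 matches, of which the printed stretch holds the one 143 to 138 bases before its RefSeq start. Siglech, which fell by 2.74 on the log2 scale, had no match in its 250 bases. A match of letters does not show that a factor binds there.

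To ask whether MPTP changed these genes when astrocytes were meant to lack Ripk3, Cre+ MPTP was compared with Cre+ Saline. None of the 9 genes was called with edgeR, where 0% of all genes tested were called in either direction and 672 had an unadjusted p under 0.05. That fit took the spread of each gene from all 13 libraries, the Cre- MPTP ones included. The paper, using DESeq2, reported genes that rose and genes that fell in this comparison. The 0% therefore does not show that MPTP left Cre+ mice unchanged. DESeq2 called 0 of the 9 genes over all libraries, while DESeq2 on these 7 libraries and limma voom each called P2ry12 and Gpr34. Over the 9 genes the median log2 fold change was 0.03, against 0.00 over all genes tested. Scaling the libraries on 18 core myeloid genes, described further on, moved the median of all genes to -0.57 and that of the 9 genes to -0.55, so the directions in this comparison are relative to TMM scaling.

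P2ry12 measured 23.7, 18.1 and 18.9 CPM in Cre+ Saline and 13.4, 15.3, 12.7 and 14.4 CPM in Cre+ MPTP. The 4 MPTP mice were below the 3 saline mice, as were the MPTP mice for 4.61% of all genes tested. The log2 fold change was -0.53 (SE 0.169), with an edgeR adjusted p of 0.935 and a DESeq2 adjusted p of 0.00682 on the 7 libraries. Gpr34 measured 8.55, 7.61 and 7.73 CPM under saline and 4.69, 6.21, 4.61 and 4.35 CPM under MPTP, again without overlap. Its log2 fold change was -0.68 (SE 0.433), with an edgeR adjusted p of 1 and a DESeq2 adjusted p of 0.0121.

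The other receptors that fell in Cre- mice were near the saline level in Cre+ mice. P2ry13 measured 9.11, 7.85 and 9.86 CPM under saline and 9.57, 8.06, 11.6 and 7.40 CPM under MPTP. Siglech measured 9.86, 9.03 and 9.98 CPM under saline and 10.9, 7.89, 11.1 and 9.42 CPM under MPTP. Fcrls measured 11.0, 13.5 and 14.2 CPM under saline and 19.0, 10.7, 16.2 and 20.2 CPM under MPTP. In each of these 3 genes, MPTP mice lay on both sides of the saline mice. The log2 fold changes were 0.03 for P2ry13 (SE 0.278), 0.03 for Siglech (SE 0.334) and 0.36 for Fcrls (SE 0.317), and -0.55, -0.57 and -0.28 when scaled on core myeloid genes.

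Csf1r was the member whose Cre+ groups were separated upward under TMM scaling, and it was at -0.30 when scaled on core myeloid genes. It measured 62.1, 63.1 and 61.0 CPM under saline and 84.2, 64.6, 82.7 and 74.0 CPM under MPTP, a log2 fold change of 0.30 (edgeR adjusted p = 1, SE 0.137). Groups did not overlap in this direction for 5.06% of genes tested. Cx3cr1 (31.4 to 32.6 CPM under saline, 31.8 to 48.5 under MPTP) and Tmem119 (16.1 to 18.9 and 16.1 to 26.6 CPM) reached higher values under MPTP in 3 of the 4 mice, with overlap through Cre+ MPTP replicate 2. Their log2 fold changes were 0.41 (SE 0.305) and 0.38 (SE 0.302), and -0.21 and -0.24 when scaled on core myeloid genes. Sall1 stayed at 26.4 to 29.8 CPM under saline and 27.2 to 29.97 CPM under MPTP.

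The genotypes were next compared directly under MPTP. Of the 9 genes, 5 had a higher level in the Cre+ mice, where 0.517% of all genes tested were called higher, 1.03% lower and 1.54% in either direction. These were again P2ry12, P2ry13, Gpr34, Siglech and Fcrls. This comparison uses the same 3 Cre- MPTP libraries as the one within Cre- mice, so the lists of genes are not independent. The median log2 fold change was 1.75 over the 9 genes and 0.03 over all genes tested.

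For P2ry12, the 4 Cre+ MPTP mice (12.7 to 15.3 CPM) were all above the 3 Cre- MPTP mice (2.49 to 3.57 CPM), and their mean was 62.9% of the Cre- Saline mean against 14.2%. The log2 fold change was 2.12 (edgeR adjusted p = 0.00142, SE 0.188), ranking 1st by p among genes tested. Siglech (log2 fold change 2.75, edgeR adjusted p = 0.00725, SE 0.384) and Fcrls (2.72, edgeR adjusted p = 0.00666, SE 0.357) showed larger fold changes with larger errors. Without Cre- MPTP replicate 2, Siglech was at 3.53. Gpr34 (2.57, SE 0.507) and P2ry13 (1.75, SE 0.300) were called with edgeR adjusted p of 0.028 and 0.0161. Without Cre+ MPTP replicate 1 or replicate 3, both P2ry13 (adjusted p of 0.061 and 0.0587) and Gpr34 (0.0778 and 0.0725) lost their calls in edgeR and 3 genes remained. Gpr34 was also lost without Cre+ MPTP replicate 4 (edgeR adjusted p = 0.0583). Without Cre- MPTP replicate 1, P2ry12 was at 1.99, P2ry13 at 1.47, Gpr34 at 2.17, Siglech at 2.47 and Fcrls at 2.41.

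Sall1 was higher in all 4 Cre+ MPTP mice than in the Cre- MPTP mice, without overlap, as were 6 of the 9 members and 6.25% of all genes tested (5.07% in the other direction). Its log2 fold change of 0.72 (SE 0.174) had an edgeR adjusted p of 0.0697, which passed the threshold when any one of the 3 Cre- MPTP libraries was left out (0.00949, 0.0361 and 0.0481). Without Cre- MPTP replicate 1, Sall1 was at 0.51. DESeq2 over all libraries and limma voom called it, with adjusted p of 0.00158 and 0.000757. Cx3cr1 (0.70, SE 0.308), Csf1r (0.38, SE 0.138) and Tmem119 (0.11, SE 0.302) were not called, with edgeR adjusted p of 0.25, 0.199 and 0.831. Cx3cr1 was called without Cre- MPTP replicate 3 (log2 fold change 1.22, edgeR adjusted p = 0.0411), and was at 0.35 and not called without Cre- MPTP replicate 1. When edgeR was run on these 7 libraries alone, 0 of the 9 genes were called, with adjusted p of 0.185 to 0.359 for the 5, while DESeq2 on the same libraries called 5.

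In saline-treated mice, the genotypes did not differ by the test, whose spread again came from all 13 libraries. None of the 9 genes was called in Cre+ Saline against Cre- Saline, nor was any other gene with edgeR (0% of genes tested), where 176 genes had an unadjusted p under 0.05. DESeq2 and limma voom called 0 of the 9 genes as well. The log2 fold changes of the members lay between -0.19 (Fcrls, SE 0.337) and 0.13 (Sall1, SE 0.181). Cx3cr1 was the member whose saline groups did not overlap (29.6 to 30.6 CPM in Cre- and 31.4 to 32.6 CPM in Cre+), as in 5.91% of genes tested in this direction and 5.71% in the other.

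The difference between the MPTP responses of the genotypes was tested as an interaction. P2ry12 had an interaction log2 fold change of 2.26 (edgeR adjusted p = 0.024, SE 0.258), that is, its change after MPTP was less negative in Cre+ mice. It was the only one of the 9 genes and one of 2 genes called among all those tested (0.0103%). Fcrls (2.91, edgeR adjusted p = 0.137, SE 0.483), Siglech (2.77, edgeR adjusted p = 0.138, SE 0.516), Gpr34 (2.61, edgeR adjusted p = 0.269, SE 0.678) and P2ry13 (1.79, edgeR adjusted p = 0.21, SE 0.418) did not pass. The call for P2ry12 was kept when Cre- MPTP replicate 1 or 2, Cre+ MPTP replicate 2 or Cre- Saline replicate 3 was left out, and lost in the other 9 of 13 fits, with edgeR adjusted p of up to 0.155. Without Cre- MPTP replicate 1, 5 of the 9 genes were called for the interaction, namely P2ry12, P2ry13, Gpr34, Siglech and Fcrls. Without Cre- MPTP replicate 2, Siglech was at 3.55. DESeq2 over all libraries called 5, and limma voom called 6. With libraries scaled on the core myeloid genes, edgeR called 0 of the 9 genes for the interaction, and P2ry12 was at 2.04 (edgeR adjusted p = 0.378).

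The 9 genes were set beside 18 genes that microglia and other myeloid cells express broadly, such as Aif1, C1qa and Ptprc. In Cre- MPTP, the mean log2 CPM of the 9 genes relative to the Cre- Saline mean was -2.44, -1.44 and -1.30 in replicates 1, 2 and 3. The mean of the core myeloid genes in the same libraries was 0.08, 0.04 and 0.90. In Cre+ MPTP, the 9 genes lay between -0.20 and 0.10 and the core myeloid genes between 0.01 and 0.70. Summed over the 18 genes, core myeloid expression was 295 to 394 CPM in Cre- Saline, 306 to 592 in Cre- MPTP, 287 to 318 in Cre+ Saline and 302 to 503 in Cre+ MPTP. The lowest of these means, -2.44, includes Gpr34 at 0 counts, whose value of -6.58 depends on the prior count. When the libraries were scaled on the core myeloid genes, P2ry12, P2ry13, Gpr34, Siglech and Fcrls were again called lower in Cre- MPTP (log2 fold changes of -3.71 to -2.20) and higher in Cre+ than Cre- under MPTP (1.70 to 2.59). The median of all genes tested then stood at -0.30 and -0.14.

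**Figure D3:**
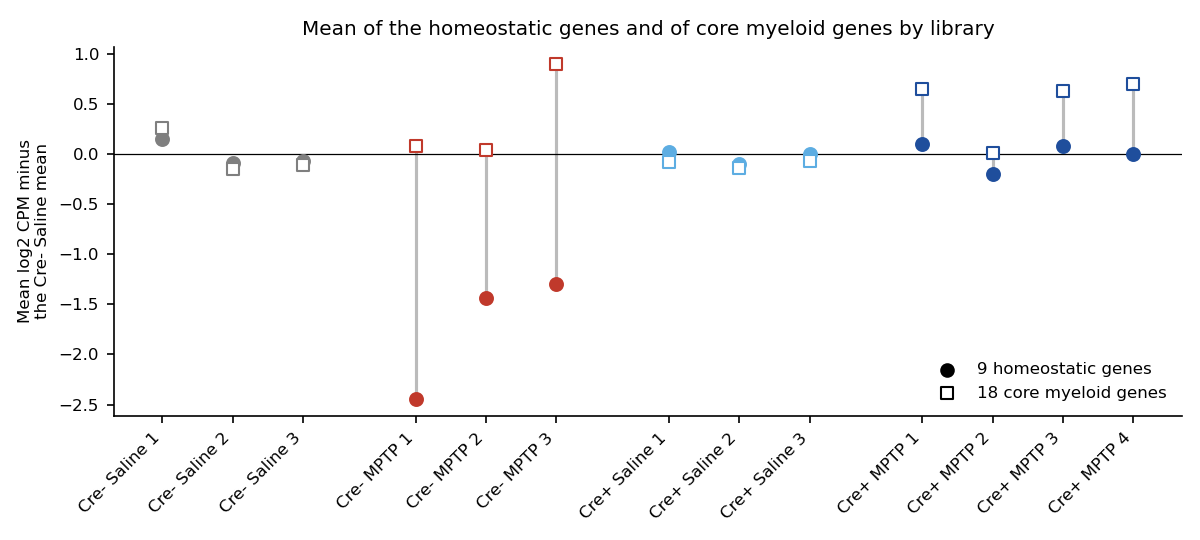
Mean log2 CPM of the 9 homeostatic genes (circles) and of 18 core myeloid genes (squares) in each library, relative to the Cre- Saline mean (vertical axis, log2). In the 3 Cre- MPTP libraries the circles lie between -2.44 and -1.30 and the squares between 0.04 and 0.90.

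Within the core myeloid list in Cre- mice, 1 gene fell and 3 rose of 18 after MPTP (median log2 fold change 0.52). Trem2, a lipid-sensing receptor of microglia, fell (log2 fold change -1.59, edgeR adjusted p = 0.00839). Its range was 9.06 to 13.9 CPM under saline and 2.53 to 5.58 CPM under MPTP. The rises were in Fcer1g, an Fc receptor signaling chain (1.61), and in the integrin genes Itgb2 (1.60) and Itgam (1.36). Under MPTP, Trem2 was higher in Cre+ than in Cre- mice (1.27, edgeR adjusted p = 0.0417). The calls of Trem2 and Fcer1g in Cre- mice held in 6 of 6 fits with 1 library left out, and those of Itgam and Itgb2 were lost without Cre- Saline replicate 2 or 3. The Trem2 call between genotypes was lost without any one of the 4 Cre+ MPTP libraries.

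Of 23 other homeostatic and sensome genes, 1 fell and 1 rose in Cre- mice after MPTP, and 16 of the 23 had a fold change below 0 (median -0.27). Ltc4s, which makes leukotriene C4, fell (log2 fold change -2.34, edgeR adjusted p = 0.0168). Gpr84, a receptor for medium-chain fatty acids, rose from a range of 0.794 to 0.898 CPM to one of 10.7 to 16.1 CPM (log2 fold change 3.94, edgeR adjusted p = 0.000217). Gpr84 had no overlap between any MPTP and saline mice, and it measured 1.45 to 3.58 CPM in Cre+ MPTP. Under MPTP, Gpr84 was lower in Cre+ mice (-2.51, edgeR adjusted p = 0.00557), while Ltc4s (2.09) and the secreted protein gene Olfml3 (1.84) were higher. The Gpr84 calls held in every fit with 1 library left out (6 of 6 and 7 of 7). The Ltc4s call in Cre- mice ended on leaving out Cre- Saline replicate 1 or Cre- MPTP replicate 2 or 3, and the genotype calls of Ltc4s and Olfml3 were lost in 5 and 3 of 7 fits, Cre+ MPTP replicates 1, 3 and 4 among them for both.

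Among 20 genes for signals and regulators of microglial identity, 4 rose and 0 fell in Cre- mice after MPTP (median 0.37). Csf1, a ligand of Csf1r, rose from a range of 27.9 to 37.9 CPM to one of 61.9 to 102 CPM (log2 fold change 1.23, edgeR adjusted p = 0.00267), while the other ligand gene Il34 did not pass (-0.37, edgeR adjusted p = 0.237). Spi1, which encodes PU.1, rose (3.03, edgeR adjusted p = 0.0457), as did Nrros (1.91), which encodes a protein that tethers latent TGF-β, and the transcription factor gene Runx1 (1.64). The Spi1 value rested on Cre- MPTP replicate 1, at 56.4 CPM against 4.71 and 8.12 CPM in the other MPTP mice. Without that library its log2 fold change was 1.21, and leaving out any of the 3 Cre- Saline mice ended the call. The call of Nrros did not hold without Cre- Saline replicate 2 or 3, nor that of Runx1 without any Cre- Saline mouse. Without Cre- MPTP replicate 1, Nrros was at 1.36 and Runx1 at 1.12. Under MPTP, Csf1 was lower in Cre+ mice (-1.01, edgeR adjusted p = 0.0133), a call lost without Cre+ MPTP replicate 1 or 3. Without Cre- MPTP replicate 1, this difference was -0.78. Tgfb1, Tgfbr1, Smad3 and Irf8 were not called in either comparison.

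None of 13 other purinergic receptor and ectonucleotidase genes was called in Cre- mice after MPTP (median 0.33) or between genotypes under MPTP (median -0.26). The 2 with the smallest p in Cre- mice were the UDP receptor gene P2ry6 (log2 fold change 1.77, edgeR adjusted p = 0.112) and P2ry2 (2.04, edgeR adjusted p = 0.152), both higher in every MPTP mouse than in the saline mice. Of 18 tested disease-associated microglia genes, only Csf1 was called, higher in Cre- mice after MPTP and lower in Cre+ than Cre- mice under MPTP. Apoe in that list reached 11528 CPM in Cre- MPTP replicate 1 against 1908 to 2943 CPM in all other libraries. In Cre+ mice after MPTP, edgeR called 0 genes of these lists, of which Gpr84 had the smallest adjusted p (log2 fold change 1.46, edgeR adjusted p = 0.294).

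**Figure D4:**
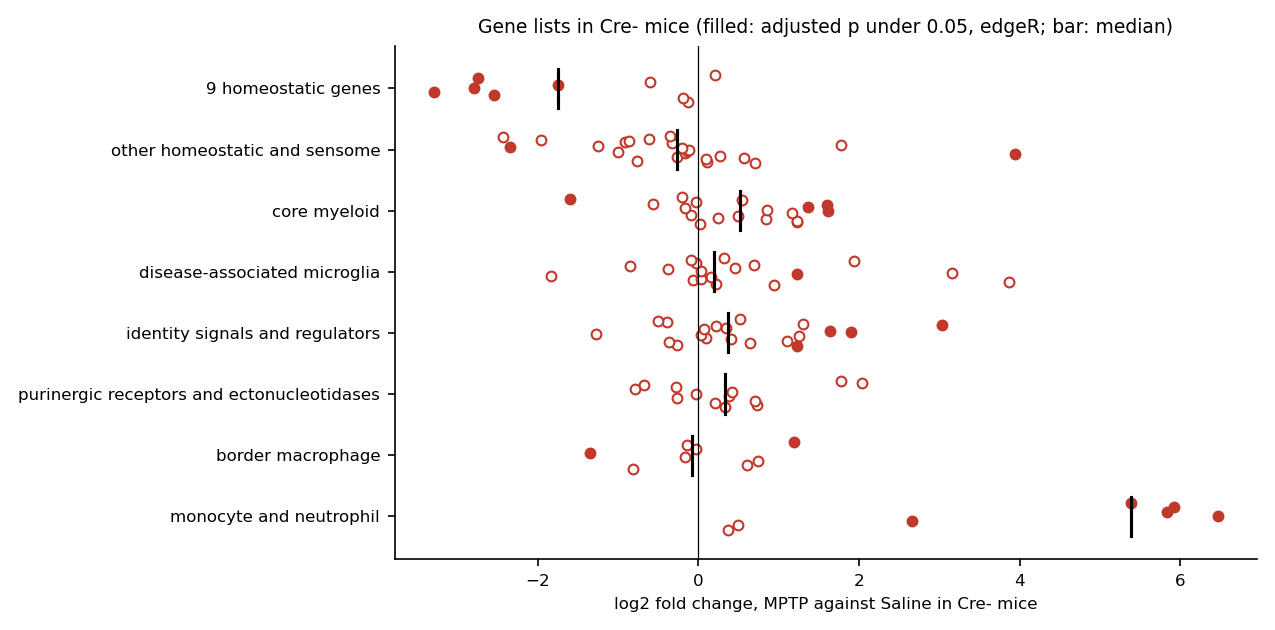
Log2 fold changes after MPTP in Cre- mice (horizontal axis) for the 9 homeostatic genes and 7 other gene lists, 1 point per gene. Filled points have an adjusted p under 0.05 and vertical bars mark medians, which range from -1.75 for the 9 genes to 5.38 for monocyte and neutrophil genes.

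Markers of other cells moved in the same libraries. Of 7 tested monocyte and neutrophil genes, 5 rose in Cre- mice after MPTP, among them Mmp8 (log2 fold change 6.47), S100a8 (5.92) and Retnlg (5.83), which encode neutrophil granule and secreted proteins. Retnlg passed the count filter only through the 3 Cre- MPTP libraries, so its direction was set by the filter. The sizes of the rises depended on single libraries. Without Cre- MPTP replicate 3, Mmp8 was at 5.48, S100a8 at 4.65 and S100a9 at 3.95 in place of 5.38, and without Cre- Saline replicate 3, Mmp8 was at 7.27 and Retnlg at 8.88. The summed level of all 9 listed genes was 4.22 to 5.12 CPM in Cre- Saline, 14.6 to 69.2 in Cre- MPTP, 4.60 to 7.16 in Cre+ Saline and 6.97 to 8.90 in Cre+ MPTP. The defining neutrophil gene Ly6g had at most 3 counts in every library, and Ccr2 was not called. Between genotypes under MPTP, 4 of the 7 were lower in Cre+ mice, 1 of them Retnlg, whose direction was again set by the filter. In Cre- mice, the call of S100a8 held in 6 of 6 fits with 1 library left out. S100a9 and Mmp8 lost theirs when any Cre- Saline mouse was left out, Mmp8 also when the third Cre- MPTP mouse was, and Retnlg when the first or the second Cre- Saline mouse was. Ly6c2 kept its call in the 4 fits that tested it and fell under the count filter without Cre- MPTP replicate 2 or 3, as Retnlg did without each of the 3 Cre- MPTP mice. Between genotypes, S100a8, S100a9, Mmp8 and Retnlg were lost without Cre+ MPTP replicate 1 or 3, and the last 3 also without replicate 4. Without Cre- MPTP replicate 3, S100a8 between genotypes was at -3.03 in place of -4.31, and S100a9 and Mmp8 were lost at -2.60 and -4.04 in place of -4.05 and -5.03. Without Cre+ MPTP replicate 2, S100a8, S100a9 and Mmp8 were at -4.91, -4.86 and -6.44. Of 8 border macrophage genes, Mrc1 fell (-1.34) and Stab1 rose (1.19) in Cre- mice after MPTP, and Mrc1 was higher in Cre+ than Cre- mice under MPTP (1.70). The fall of Mrc1 did not hold without Cre- MPTP replicate 2 or any Cre- Saline mouse, its genotype call without Cre+ MPTP replicate 1 or 3, and the rise of Stab1 without Cre- Saline replicate 1 or 2. Summed over the 8, the level was 32.5 to 40.5 CPM in Cre- Saline and 46.2 to 75.0 CPM in Cre- MPTP.

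Oligodendrocyte markers were lower in the Cre- MPTP libraries too. All 5 had a fold change below 0, of which Mog was called (-1.72, though not once Cre- Saline replicate 2 or 3 or Cre- MPTP replicate 3 was left out). Without Cre- MPTP replicate 1, Mog was at -1.32. The sum of the 5 was 11865 to 16167 CPM in Cre- Saline and 8754 to 11320 CPM in Cre- MPTP. In Cre+ mice the sum was 14292 to 16011 CPM under saline and 10455 to 13714 CPM under MPTP. Of 5 astrocyte markers, 3 had a fold change below 0 in Cre- mice after MPTP (median -0.26). Their sum was 1879 to 2367 CPM in Cre- Saline and 1216 to 2610 CPM in Cre- MPTP, lowest in Cre- MPTP replicate 1. Aldh1l1 alone was called, higher in Cre- mice after MPTP (0.65). That call ended on leaving out Cre- Saline replicate 1, Cre- Saline replicate 2 or Cre- MPTP replicate 3. Cre+ MPTP replicate 4 held 2190 summed CPM of 4 muscle genes, and pituitary genes reached 605 summed CPM in Cre+ Saline. The part of these cells in the results for the 9 genes was not tested. With Cre- MPTP replicate 1 and Cre+ MPTP replicate 4 both left out, 6 of the 9 genes were called in Cre- mice after MPTP and 6 between genotypes under MPTP, Sall1 being the addition in each.

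The genes whose profile over the 13 libraries was most like the mean of the 9 were named by the root mean square difference of log2 CPM, each profile centred on its own mean. Of the members, P2ry13 was closest to the mean (0.17) and Gpr34 farthest (1.13). Among the 19360 genes tested, P2ry13 ranked 1st by closeness, Csf1r 5967th, Tmem119 12158th and Gpr34 16163rd, with the other members at 262 to 3563. The mean is thus not a profile that all 9 share. Outside the list, the closest 10 were Aif1l (0.23), Tek, Padi2, Plxnb3, Evi2a, Ankub1, Eml1, Sox2ot, Fabp7 and Rasgrp3 (0.26). Their log2 fold changes in Cre- mice after MPTP ranged from -1.81 (Tek) to -1.09 (Ankub1). The 5 closest to P2ry12 alone were Itm2a (0.28), B230206H07Rik, Notum, Ninj2 and Myoc (0.36), with log2 fold changes of -2.43 to -2.11 in Cre- mice after MPTP. These genes were chosen for their likeness, so their fold changes are a description.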

How the data were processed

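Midbrain RNA of 13 mice was sequenced from stranded total RNA libraries. Per the labels and methods, the authors trimmed reads with Trimmomatic 0.36, aligned them to GRCm38 with STAR 2.5.2b and counted unique reads per gene with featureCounts of Subread 1.5.2. The deposited values are raw counts per gene, without normalization. The depth of 11489150 to 29397278 counts per library limits the precision of genes with few counts.

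Symbols for 49056 of 49315 genes came from GENCODE M21. Genes with 10 or more counts in 3 or more libraries were fitted in edgeR 4.0.16 (R 4.3.3) with TMM factors and 1 coefficient per group over all 13 libraries. The quasi-likelihood test (two-sided) was adjusted by Benjamini-Hochberg, with calls at an adjusted p under 0.05. CPM are TMM-scaled, RPKM are CPM per kilobase of exon, and log2 CPM used a prior count of 2. The SE is the absolute log2 fold change divided by the square root of F. Treatments were compared within each genotype, genotypes within each treatment, and the interaction was tested. Scripts were tested on simulated data.

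Alternatives were DESeq2 1.42.0, limma 3.58.1 voom with sample quality weights, fits on the groups compared, other filters and scalings, a replicate block, and each library left out. The exclusion of 2 libraries together was added after seeing the data. The 9 genes and all lists were chosen with earlier results of these data known. All 9 are described, and of each list up to 3 called genes per direction with the largest fold change, or the 2 with the smallest p where none was called. Il34, Tgfb1, Tgfbr1, Smad3, Irf8 and Apoe were named after their values were seen. Of the listed genes, 1 had no match.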

Additional observations from a re-analysis of the deposited data

Results flagged for a closer look

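Sall1 in Cre+ MPTP replicate 1, at 29.97 CPM, lay apart from the other 3 mice of its group, which measured 27.2 to 27.4 CPM. The gap was a larger part of the group's range than Dixon's 95% critical value for 4 samples. Chance marks about 1 in 20 groups in this way for each gene, and 9 genes are covered here. Only Cre+ MPTP had the 4 samples that the rule needs.

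The MPTP response of P2ry12 differed between genotypes by the interaction term, with a log2 fold change of 2.26 (edgeR adjusted p = 0.024). This call was lost in 9 of 13 fits with a library left out (edgeR adjusted p of up to 0.155). It was also lost with core myeloid scaling and with the replicate block. For P2ry12 after MPTP, the log2 fold change was -2.79 in the absence of Cre and, with Cre, where the gene was not called (edgeR adjusted p = 0.935), -0.53, and 3 of 3 and 4 of 4 MPTP mice were below the saline mice of their genotype.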

How the results depend on the processing

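Counts of the 9 genes called were within 1.5 times the reported ones except where given here, and no gene called in the report turned its direction under an alternative. After MPTP in Cre- mice, 5 genes were called, 1 with edgeR on the groups compared, and 5 to 6 with each library left out. After MPTP in Cre+ mice, 0 were called, but 2 with DESeq2 on the groups compared or limma voom. The range over libraries left out was 0 to 0, as in saline. Between genotypes under MPTP, 5 were called, 0 with edgeR on the groups compared and 3 to 7 with a library left out. For the interaction, 1 was called, 5 with DESeq2 over all libraries, 6 with limma voom, 2 with no count filter, 0 with libraries scaled on core myeloid genes and 0 to 5 with a library left out. An alternative chosen after seeing the data, the exclusion of both Cre- MPTP replicate 1 and replicate 4 of Cre+ MPTP, gave 5. The causes were not tested. Fits on the groups compared use fewer samples, and whether this lowered the edgeR counts was not tested either.

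With the mouse number as a replicate block, 5 genes were called after MPTP in Cre- mice, 0 between genotypes under MPTP (edgeR adjusted p of 0.0673 to 0.126 for the 5) and 0 for the interaction. The numbers are shared between groups without a stated meaning, and same-numbered mice deviated together in only 3 of 12 pairs at a correlation over 0.1 (-0.12 to 0.18).

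Log2 fold changes that changed sign were small or uncalled ones. With limma voom, these were Tmem119 (-0.11), Cx3cr1 (0.17) and Csf1r (0.013) after MPTP in Cre- mice and Sall1 (0.013) in Cre+ mice. In saline they were P2ry13 (0.032), Tmem119 (0.030), Gpr34 (0.12), Siglech (0.014), Csf1r (0.039) and Fcrls (0.078). With core myeloid scaling, they were Tmem119 (-0.090) in Cre- mice, and in Cre+ mice P2ry13 (-0.55), Tmem119 (-0.24), Cx3cr1 (-0.21), Siglech (-0.57), Csf1r (-0.30) and Fcrls (-0.28). Tmem119 between genotypes under MPTP (-0.12) and for the interaction (-0.15) also changed, as did P2ry13 (0.059), Tmem119 (0.027), Gpr34 (0.094), Siglech (0.089) and Csf1r (0.037) in saline. Sall1 in Cre+ mice was at 0.0020 under the block and 0.0080 with both libraries left out, where Tmem119 (-0.23) and Cx3cr1 (0.16) changed in Cre- mice. With each library left out, the ranges that cross 0 in Cre- mice were -0.25 to 0.52 for Tmem119 and -0.71 to 0.15 for Cx3cr1. In Cre+ mice they were -0.028 to 0.12 for Siglech, -0.10 to 0.12 for P2ry13 and -0.060 to 0.018 for Sall1. For Tmem119 they were -0.21 to 0.56 between genotypes under MPTP and -0.14 to 0.63 for the interaction. In saline they were -0.11 to 0.048 for P2ry13, -0.14 to 0.0090 for Tmem119, -0.20 to 0.26 for Gpr34, -0.17 to 0.14 for Siglech and -0.12 to 0.077 for Csf1r.

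Depth limits Gpr34 and Siglech most, which had 0 to 35 and 5 to 65 counts in Cre- MPTP.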
